A study of Mus musculus with 5 samples.

Results

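The TGF-beta and BMP pathway was followed through 43 genes in the cartilage of the mandibular condyle, the head of the lower jaw in the temporomandibular joint (TMJ). The genes were taken by name, as ligands, receptors, Smads, antagonists, latent complex proteins and targets. All 43 had a row of their own among the 19938 genes tested, each with a single row on the array. The arrays held total RNA of 129/Sv mice, with 2 mice carrying the DDR-1-KO genotype (knockout 2 and 5) and 3 wild-type mice (wild type 3, 4 and 6). DDR-1 is a receptor tyrosine kinase that binds collagen. No treatment is named for either group, and neither the age of the mice nor the way in which the gene was disrupted is given in the sources used here. Each label names a mouse of its own, so the p-values measure differences between mice and between hybridisations, which cannot be separated here.

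Ligands of the TGF-beta superfamily bind pairs of type I and type II serine/threonine kinase receptors, which phosphorylate the receptor Smads. TGF-beta and activin act mainly through Smad2 and Smad3, BMP and some GDF ligands through Smad1, Smad5 and Smad9, and both arms share Smad4. Secreted antagonists hold BMP ligands or activins away from their receptors, and latent TGF-beta binding proteins store TGF-beta in the matrix. In cartilage, TGF-beta signalling is known for keeping articular chondrocytes from maturing, and BMP signalling for driving chondrocyte differentiation and growth.

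Values are the authors' log2 RMA signals, and a change is the knockout mean minus the wild-type mean on that scale. Knockout 2 and wild type 3 share 1 date in their array file names and the other 3 arrays share another, so differences are also given within each date. Correlations across genes were 0.984 to 0.993 among the wild-type arrays, 0.903 to 0.927 for knockout 5 against them and 0.814 to 0.837 for knockout 2 against them. Between the knockout arrays the correlation was 0.803. Ddr1 itself was at 5.96 and 5.80 in knockout 2 and 5 against 6.02 on each wild-type array, a change of -0.14 (SE 0.058, limma's adjusted p = 0.377) whose sign turned under 3 scalings, so it does not check the labels. Over all genes tested 2.18% fell and 1.55% rose at an adjusted p under 0.05. Of 12 chondrocyte markers, Sox9, Comp and Col9a3 fell and none rose, with a summed signal of 739 and 869 in knockout and 983 to 1004 in wild type. The 7 skeletal muscle markers held 1 fall, of Pygm, and summed to 337 and 363 against 420 to 458. The 4 adipocyte markers held 1 fall, of Cidec, and summed to 139.5 and 189 against 190.8 to 197.5. Among them Plin1 was lower in the mean (-0.12), and Adipoq (0.43) and Fabp4 (0.030) were higher, without a call. The 4 endothelial markers, with no call, summed to 123 on both knockout arrays against 141 to 153. The other marker lists, of bone, hypertrophic cartilage, fibrous layer, red cell and neutrophil or macrophage genes, held no call. The marker calls above all ended with the array date as a block, quantile normalisation or cyclic loess, where no gene passed. The sums are of unlogged signals. The log2 values spread less over genes on the knockout arrays, and the part of this in the sums was not tested. No marker was listed at 0, but detection calls were not used, so this does not show which cell types were present. The part of other cells in the pathway values was not tested. In whole tissue, fewer cells of a type and less RNA per cell cannot be told apart.

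Of the 43 pathway genes, 1 rose in knockout cartilage, 0 fell and 42 did not pass limma's test at an adjusted p under 0.05. Over all genes tested 3.73% passed, 1.55% as rises and 2.18% as falls, so a count of 1 among 43 (2.33%) is near the background. At an unadjusted p under 0.05 there were 9 pathway genes (20.9%), beside 18.2% of all genes. Both knockout arrays lay above every wild-type array in 4 pathway genes and below in 9. These 13 genes without overlap make 30.2%, beside 31.5% of all genes, with 13.0% above and 18.6% below. Without knockout 2 the count was 21 of 43 (37.7% of all genes) and without knockout 5 also 21 (50.2% of all genes), where the 1 knockout array left was taken to vary like wild type. The median change was -0.070 over the pathway genes and -0.0083 over all genes tested, and 26 of 43 were lower beside 51.1% of all genes. The pathway genes lie mostly among brighter rows, 32 of them at or above the median level of all genes, where the median change over all genes was -0.135. With cyclic loess between the arrays the pathway median turned to 0.019 and with arrays centred on their median to 0.0019, so no direction holds for the pathway as a whole.

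**Figure D1:**
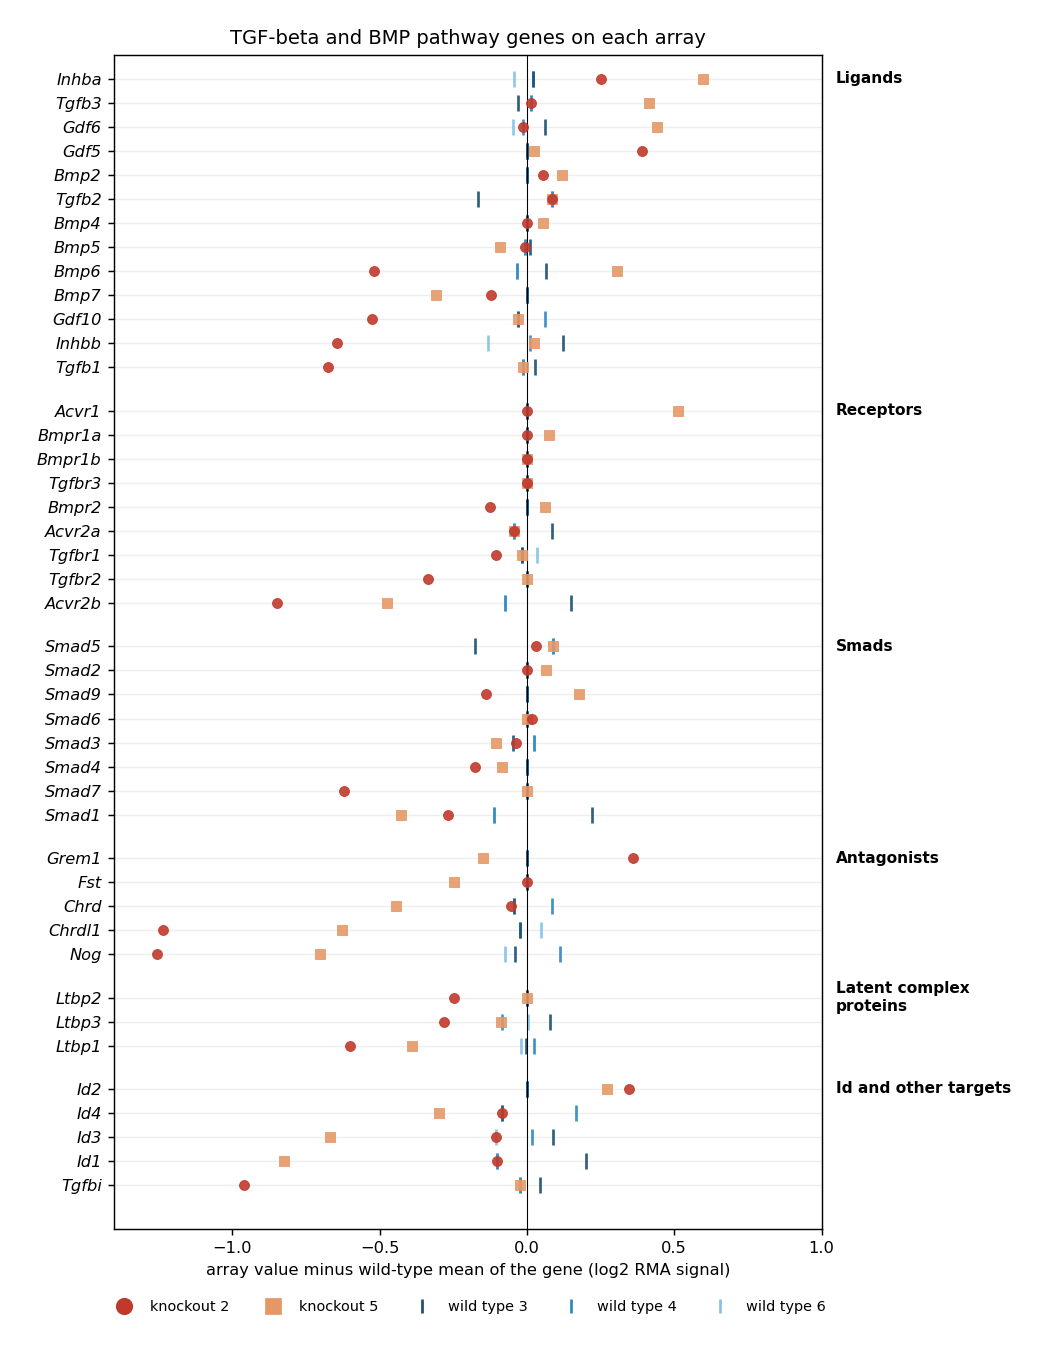
Value of each of the 43 pathway genes on each array minus the gene's wild-type mean (x axis, log2 RMA signal), grouped by role, with circles for knockout 2, squares for knockout 5 and vertical bars for the 3 wild-type arrays. Nog and Chrdl1 have both knockout arrays well to the left of wild type, with their knockout 2 values the lowest of all, Id2 and Inhba have both to the right of all wild-type bars, and for Tgfb1, Smad7 and Tgfbi only knockout 2 stands away from wild type.

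Many deposited values are shared exactly, to all printed digits, between arrays and between genes. Wild type 3, 4 and 6 had 1 common value in 19 of the 43 pathway genes (44.2%, beside 39.1% of all genes), and 17 more pathway genes held only 2 distinct wild-type values. In such genes the wild-type SD and the SE rest on ties and say little about differences between mice. Of the 215 values of the pathway genes, 87 (40.5%, beside 41.2% over all genes) were also the value of at least 1 other gene on the same array, and 57 (26.5%, beside 27.1%) that of at least 10 others. The wild-type value of Id2 was also that of 61, 61 and 63 other genes on wild type 3, 4 and 6. None of the values of Ltbp1, Chrdl1 and Inhba was shared with another gene, whereas the value of Nog on wild type 6 was shared with 58 and that of Acvr2b on knockout 5 with 111. Of the 17 pathway genes tested in detail below, Nog, Ltbp1, Ltbp3, Id3 and Smad3 had 3 distinct wild-type values.

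Among the 13 ligands 0 passed limma's test and 3 (23.1%, beside 18.2% of all genes) had an unadjusted p under 0.05. Changes of the 13 ran from -0.34 to 0.42. Inhba, which encodes the subunit of activin A, was at 5.97 in knockout 2, 6.31 in knockout 5, 5.74 in wild type 3 and 4 and 5.67 in wild type 6. Both knockout values were above all wild-type values. Its change of 0.42 (SE 0.120, limma's adjusted p = 0.197) was 1.34-fold, with a 95% interval of 0.077 to 0.77. It was 0.23 within the first date and 0.61 within the second, and 0.50 to 0.59 under the 4 scalings, where it did not pass either. Inhbb, which encodes another activin beta subunit, was at 4.72 in knockout 2, below all wild-type values of 5.24 to 5.49, and at 5.39 in knockout 5, among them.

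Bmp2, a potent inducer of cartilage and bone, was at 4.53 and 4.60 in knockout against 4.48 on each wild-type array. The groups did not overlap, but the difference was only 0.087 (SE 0.026, adjusted p = 0.215). Bmp7, a BMP of kidney, cartilage and bone, was at 6.07 and 5.89 against 6.20 on each wild-type array. Its change was -0.22 (SE 0.065, adjusted p = 0.219) and shrank to -0.029 after cyclic loess. Bmp6, a BMP made by hypertrophic chondrocytes, went apart between the knockout mice. Knockout 2 had 5.47 and knockout 5 had 6.30, and the wild-type arrays lay between them at 5.96 to 6.05, so that the change of -0.11 (SE 0.281, adjusted p = 0.836) averages opposite differences of -0.58 and 0.34 within the dates. Bmp4 and Bmp5, close relatives of Bmp2 and Bmp7, stayed within 0.10 of the wild-type mean on both knockout arrays.

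The 3 TGF-beta ligands did not share a pattern. Tgfb1, the isoform stored most widely in matrix, had 5.12 on knockout 2 and 5.78 on knockout 5, next to 5.82, 5.78 and 5.78 on wild type 3, 4 and 6. Only knockout 2 stood apart, at -0.70 from wild type 3 of the same date. Tgfb3 was at 5.25 in knockout 2, the value of wild type 4 and 6, and at 5.65 in knockout 5. Tgfb2 had the same value of 5.84 on both knockout arrays and on wild type 4 and 6, with wild type 3 lower at 5.59. Gdf5, a factor that marks the forming joint, had 6.15 on knockout 2 and 5.78 on knockout 5, next to 5.76 on each wild-type array. Gdf6 was high only in knockout 5, at 6.18 against 5.69 to 5.80 in wild type, and Gdf10 was low only in knockout 2, at 5.13 against 5.63 to 5.72.

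Among the 9 receptors 0 passed limma's test and 1 (11.1%, beside 18.2% of all genes) had an unadjusted p under 0.05. That was Acvr2b, a type II receptor for activins and related ligands, at 4.90 in knockout 2, 5.27 in knockout 5, 5.90 in wild type 3 and 5.68 in wild type 4 and 6. Both knockout arrays lay below all wild-type arrays. Its change of -0.66 (SE 0.154, limma's adjusted p = 0.140) was a wild-type signal 1.58-fold that of knockout, with a 95% interval of -1.11 to -0.22. It was -1.0 within the first date and -0.40 within the second. Under the 4 scalings it ran from -0.61 to -0.55.

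The other receptors showed small or 1-sided differences. Acvr1, a type I receptor for BMPs, was at 4.59 in knockout 2 and on every wild-type array and at 5.11 in knockout 5, so its change of 0.26 (SE 0.174, adjusted p = 0.399) rests on knockout 5 alone. Tgfbr2, the type II receptor that binds TGF-beta first, was the reverse case, at 5.67 in knockout 2 and 6.01 on the other 4 arrays. Tgfbr1, its type I partner, was at 3.86 and 3.94 against 3.94, 3.94 and 4.00 (-0.060, SE 0.039, adjusted p = 0.399), and its sign turned with arrays centred on their median. Bmpr1b and Tgfbr3 had the same value on all 5 arrays, 4.97 and 5.42, which does not show equal expression. Bmpr1a, Bmpr2 and Acvr2a had changes within 0.05 of 0.

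Among the 8 Smads 0 passed limma's test and 1 (12.5%, beside 18.2% of all genes) had an unadjusted p under 0.05. Smad4, the partner shared by both arms, was at 5.42 and 5.52 in knockout against 5.60 on each wild-type array. The groups did not overlap, with a change of -0.13 (SE 0.035, adjusted p = 0.182) that shrank to -0.0037 after cyclic loess. Smad1, a receptor Smad of the BMP arm, was at 5.40 and 5.24 against 5.89, 5.56 and 5.56 in wild type 3, 4 and 6. Both knockout values were below all wild-type values, and the change was -0.35 (SE 0.141, adjusted p = 0.350). Smad3, a receptor Smad of the TGF-beta arm, was at 5.65 and 5.58 against 5.63 to 5.71, and its change of -0.070 (SE 0.040, adjusted p = 0.399) turned above 0 under all 4 scalings.

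The inhibitory Smads, which block receptors and are themselves induced by the pathway, differed from each other on the arrays. Smad7 was at 4.76 in knockout 2 and at 5.38 on the other 4 arrays. Smad6, which acts mainly on BMP signalling, was at 6.77 in knockout 2 and 6.75 on the other 4. Smad9 lay on opposite sides of the common wild-type value of 5.81, with 5.68 for knockout 2 and 5.99 for knockout 5. Smad2 and Smad5 had changes of 0.032 and 0.059.

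Among the 5 antagonists 0 passed limma's test and 2 (40%, beside 18.2% of all genes) had an unadjusted p under 0.05. Both had lower values in knockout. These 2 genes had the largest changes of the 43. Nog encodes noggin, which binds BMPs and keeps them from their receptors. It was at 4.16 in knockout 2, 4.71 in knockout 5, 5.37 in wild type 3, 5.53 in wild type 4 and 5.34 in wild type 6. Both knockout arrays were below all wild-type arrays by at least 0.63, and the wild-type values spanned 0.19. The mean was 4.43 ± 0.391 (SD, n = 2) in knockout and 5.41 ± 0.0998 (SD, n = 3) in wild type. Its change of -0.98 (SE 0.199, limma's adjusted p = 0.111) was a wild-type signal 1.97-fold that of knockout, with a 95% interval of -1.55 to -0.40. Within the dates it was -1.22 and -0.72.

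Chrdl1 encodes chordin-like 1, a secreted BMP antagonist, and like Nog was lowest in knockout 2 and next lowest in knockout 5. It was at 3.82 in knockout 2, 4.43 in knockout 5, 5.03 in wild type 3 and 4 and 5.10 in wild type 6, with no overlap. The change was -0.93 (SE 0.207, adjusted p = 0.131), with a 95% interval of -1.53 to -0.33, and -1.21 and -0.64 within the dates. Under the 4 scalings Nog ran from -1.02 to -0.91 and Chrdl1 from -1.05 to -0.86, and neither passed. Chrd, which encodes chordin, was at 5.85 and 5.46 against 5.86, 5.99 and 5.86, so knockout 2 lay only 0.013 below the wild-type range. Fst, which encodes the activin-binding follistatin, was lower only in knockout 5, at 5.23 against 5.47 on the other 4 arrays. Grem1, which encodes gremlin, was at 5.76 in knockout 2 and 5.25 in knockout 5 on opposite sides of 5.40 on each wild-type array (0.11, SE 0.172, adjusted p = 0.698).

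The 3 latent complex proteins were lower in knockout, and 0 passed limma's test. An unadjusted p under 0.05 was reached by 1 (33.3%, beside 18.2% of all genes). Ltbp1, a matrix protein bound to latent TGF-beta, was at 4.83 in knockout 2, 5.04 in knockout 5, 5.42 in wild type 3, 5.45 in wild type 4 and 5.41 in wild type 6. Both knockout arrays were below all wild-type arrays, whose values spanned 0.044. Its change of -0.50 (SE 0.075, limma's adjusted p = 0.0675) was a wild-type signal 1.41-fold that of knockout, with a 95% interval of -0.71 to -0.28. It was the lowest adjusted p among the 42 genes that did not pass, and the gene passed at a threshold of 0.1, where 8.18% of all genes did. Within the dates it was -0.60 and -0.39, and under the 4 scalings it ran from -0.47 to -0.41. Ltbp3 was at 6.16 and 6.36 against 6.53, 6.36 and 6.45 (-0.18, SE 0.087, adjusted p = 0.399), a difference that turned to 0.032 under cyclic loess and to 0.045 under centring plus scaling. Its knockout 5 value lay just 0.0036 below the lowest wild-type value. Ltbp2 was at 5.89 in knockout 2 and at 6.14 on the other 4 arrays.

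**Figure D2:**
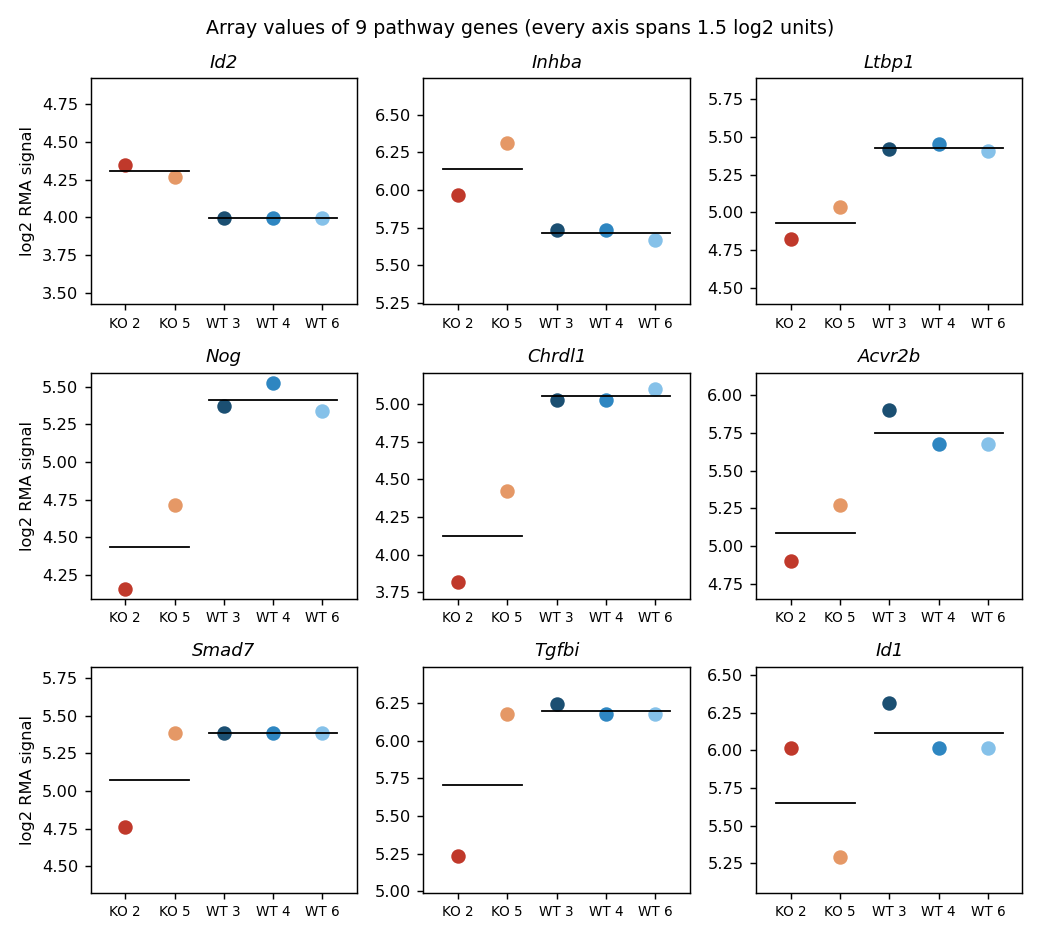
Log2 RMA signal of 9 pathway genes (y axis, each spanning 1.5 log2 units) on knockout arrays 2 and 5 (KO) and wild-type arrays 3, 4 and 6 (WT), with a line at each group mean. Id2 and Inhba are higher and Ltbp1, Nog, Chrdl1 and Acvr2b lower on both knockout arrays, whereas Smad7 and Tgfbi are low only on knockout 2 and Id1 only on knockout 5.

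The Id genes are direct targets of BMP signalling and encode helix-loop-helix proteins that block basic helix-loop-helix factors. Id2 was the 1 call among the 43 genes. It had 4.35 on knockout 2 and 4.27 on knockout 5, next to 4.00 on each wild-type array, so both knockout arrays were higher. The rise was 0.31 (SE 0.030, limma's adjusted p = 0.0344), or 1.24-fold, with 0.35 and 0.27 within the dates. Its wild-type values were identical and shared with other genes, so the SE rests on the knockout arrays and on limma's moderation of the spread. The call ended with the array date as a block (0.30, adjusted p = 0.0786), without any 1 of the 3 wild-type arrays (0.31, adjusted p from 0.172 to 0.217) and under every scaling, where the rise was 0.18 to 0.38 (adjusted p from 0.0761 to 0.194).

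The other Id genes did not pass, and their lower means came mostly from knockout 5. Within the first and second date the differences were -0.30 and -0.72 for Id1, -0.19 and -0.63 for Id3, and 0 and -0.34 for Id4. Id1 was at 6.01 in knockout 2, the value of wild type 4 and 6, and at 5.29 in knockout 5, with wild type 3 at 6.32. Id3 was at 5.59 in knockout 2, the value of wild type 6, and at 5.02 in knockout 5, with wild type 3 and 4 at 5.78 and 5.71 (-0.39, SE 0.202, adjusted p = 0.399). Id4 was at 5.95 in knockout 2, as on wild type 3 and 6, and at 5.74 in knockout 5. In these 3 genes knockout 5 lay below every wild-type array and knockout 2 did not, while in Id2 both lay above. Tgfbi, a matrix protein induced by TGF-beta, had the reverse order, at 5.24 in knockout 2 and 6.18 in knockout 5, the value of wild type 4 and 6. Within the first date Tgfbi differed by -1.0 and within the second by 0.

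The promoters of 3 Id genes are shown because Id2 is the called gene and the Id genes are known BMP targets. RefSeq promoters of GRCm38.p6 were matched for 30 of the 43 genes, Id2, Id3 and Id4 among them and Id1 not. The 250 bases before each start site were searched on both strands for GGCGCC, the core of known BMP response elements, and GTCT, the Smad binding letters. Capitals mark a match on either strand, and no match of 1 motif overlapped the other.
Id2: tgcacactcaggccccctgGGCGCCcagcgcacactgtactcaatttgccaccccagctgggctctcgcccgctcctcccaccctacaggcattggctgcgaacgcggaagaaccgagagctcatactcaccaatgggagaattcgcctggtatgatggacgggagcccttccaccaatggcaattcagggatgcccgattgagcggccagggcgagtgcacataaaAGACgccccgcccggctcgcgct
Id3: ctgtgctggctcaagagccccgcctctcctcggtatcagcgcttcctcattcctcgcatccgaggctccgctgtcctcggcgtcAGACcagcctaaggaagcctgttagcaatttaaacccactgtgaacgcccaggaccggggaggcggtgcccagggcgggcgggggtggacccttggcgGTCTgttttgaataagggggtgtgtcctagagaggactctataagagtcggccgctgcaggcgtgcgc
Id4: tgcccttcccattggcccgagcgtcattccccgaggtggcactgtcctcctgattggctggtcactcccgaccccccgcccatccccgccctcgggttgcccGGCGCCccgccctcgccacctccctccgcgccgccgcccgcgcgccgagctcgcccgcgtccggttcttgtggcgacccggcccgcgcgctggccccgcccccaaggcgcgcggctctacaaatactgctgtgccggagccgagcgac
The Id2 window is chr12:25096093-25096342 on the minus strand, that of Id3 chr4:136143572-136143821 on the plus strand and that of Id4 chr13:48260866-48261115 on the plus strand. Id2 held GGCGCC at 1 place, starting 231 bases before the start site, and GTCT at 1 place, in the reverse orientation. Id3 held no GGCGCC and 2 matches of GTCT, and Id4 held GGCGCC at 1 place, 148 bases before the start site, and no GTCT. Among all 32851 promoters listed, a share of 9.59% held GGCGCC and 82.9% held GTCT in these 250 bases. Of the 30 pathway genes 10 held the first and 26 the second in at least 1 promoter. These counts are of genes, which can have several promoters, and the shares above are of single promoters. The counts and shares can therefore not be compared directly. The GC content of the windows was 62.8% for Id2 and Id3 and 75.6% for Id4.

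Another 59 genes of the pathway, from a list of 64 that holds further ligands, receptors, antagonists, activators, Smad regulators and targets, included 0 rises and 2 falls (3.39%, beside 3.73% of all genes). Tgif2, a homeodomain corepressor of Smad2 and Smad3, was at 6.70 and 6.65 in knockout against 7.31, 7.35 and 7.41 in wild type. It fell with a change of -0.68 (SE 0.041, limma's adjusted p = 0.0210), a wild-type signal 1.60-fold that of knockout, and its 3 wild-type values were distinct. It no longer passed with the array date as a block (-0.68, adjusted p = 0.0623). Quantile normalisation gave -0.46 (adjusted p = 0.135), cyclic loess gave -0.39 (adjusted p = 0.170), and centring plus scaling gave -0.34 (adjusted p = 0.274). Without wild type 3, 4 or 6 the adjusted p was 0.112, 0.157 and 0.179. Amh, the anti-Müllerian hormone, was at 5.15 and 5.25 against 5.57 on each wild-type array (-0.37, SE 0.040, adjusted p = 0.0398), and the block (adjusted p = 0.0829), each of the 4 scalings and each left-out wild-type array ended its call.

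Of the next 3 in order of p, none passed. Gdf7, a relative of Gdf5 and Gdf6, was at 6.70 and 6.28 against 7.40 to 7.63, a change of -1.04 (SE 0.165, adjusted p = 0.0731). Ltbp4, of the same family as Ltbp1, was at 5.48 and 5.41 against 5.98 to 6.22 (-0.61, SE 0.099, adjusted p = 0.0748). Ski, a corepressor of Smads, was at 5.90 and 6.16 against 6.58 to 6.77 (-0.61, SE 0.115, adjusted p = 0.0978). All 3 had both knockout arrays below every wild-type array. Gdf7 passed (adjusted p = 0.0439) when genes with identical wild-type values were left out. Each scaling made its change smaller. Cyclic loess left -0.74 of it, centring plus scaling -0.70, quantile normalisation -0.83 and median centring -0.96. Gdf7 passed under none of these scalings (limma's adjusted p from 0.0752 to 0.254). On 1 knockout array alone, its change was -1.25 for knockout 5 and -0.82 for knockout 2. For Ski these values were -0.48 and -0.74. Cyclic loess left -0.39 of the change of Ski. Of the 59 genes 47 were lower in knockout, the 18 ligands all among them, beside 51.1% of all genes. The median change was -0.13 over the 59, and -0.21 over the 42 at or above the median level of all genes, where all genes had -0.135. The count of lower genes was 35 of 59 after cyclic loess and 36 after quantile normalisation.

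**Figure D3:**
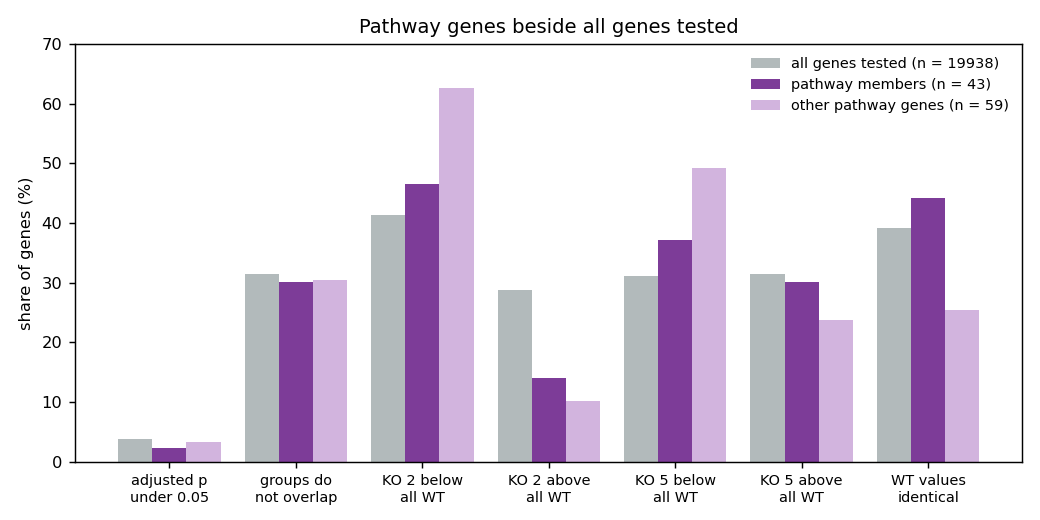
Share of genes (y axis, %) that passed limma's test, that had no overlap between groups, that lay outside the wild-type range on each knockout array (KO 2, KO 5) or that had identical wild-type (WT) values, for all 19938 genes tested, the 43 pathway genes and the 59 other pathway genes. The first pair of shares is alike in the 3 sets, at 2.33% to 3.73% for calls and 30.2% to 31.5% for no overlap. The directions are not alike on the deposited values, where the 18 other pathway genes without overlap had 17 below and 1 above. Of the 59 genes 42 lay at or above the median level of all genes, where all genes had a median change of -0.135. The count of lower genes among the 59 went from 47 to 35 after cyclic loess. Knockout 2 lay below wild type in 62.7% of the other pathway genes and above in 10.2%, beside 41.4% and 28.7% of all genes. Knockout 5 lay below in 49.2% and above in 23.7%, beside 31.2% and 31.4%.

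The knockout arrays were also set against wild type one at a time. Knockout 2 lay below every wild-type array in 20 of the 43 genes (46.5%, beside 41.4% of all genes) and above in 6 (14.0%, beside 28.7%). Knockout 5 lay below in 16 (37.2%, beside 31.2%) and above in 13 (30.2%, beside 31.4%). They stood on opposite sides of the wild-type range in 4, Bmp6, Grem1, Smad9 and Bmpr2 (13.9% of all genes did so). In another 21 genes (48.8%, beside 41.8% of all genes) only 1 knockout array left the wild-type range. Knockout 2 was the low one for 8 of them, Tgfb1, Tgfbi, Smad7, Tgfbr1, Tgfbr2, Ltbp2, Gdf10 and Inhbb, and the high one for Smad6. Knockout 5 was the low one for 6, Id1, Id3, Id4, Fst, Smad3 and Bmp5, and the high one for 6, Tgfb3, Gdf6, Acvr1, Smad2, Bmp4 and Bmpr1a. These comparisons share the wild-type arrays, and knockout 2 is also the array least like wild type over all genes.

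**Figure D4:**
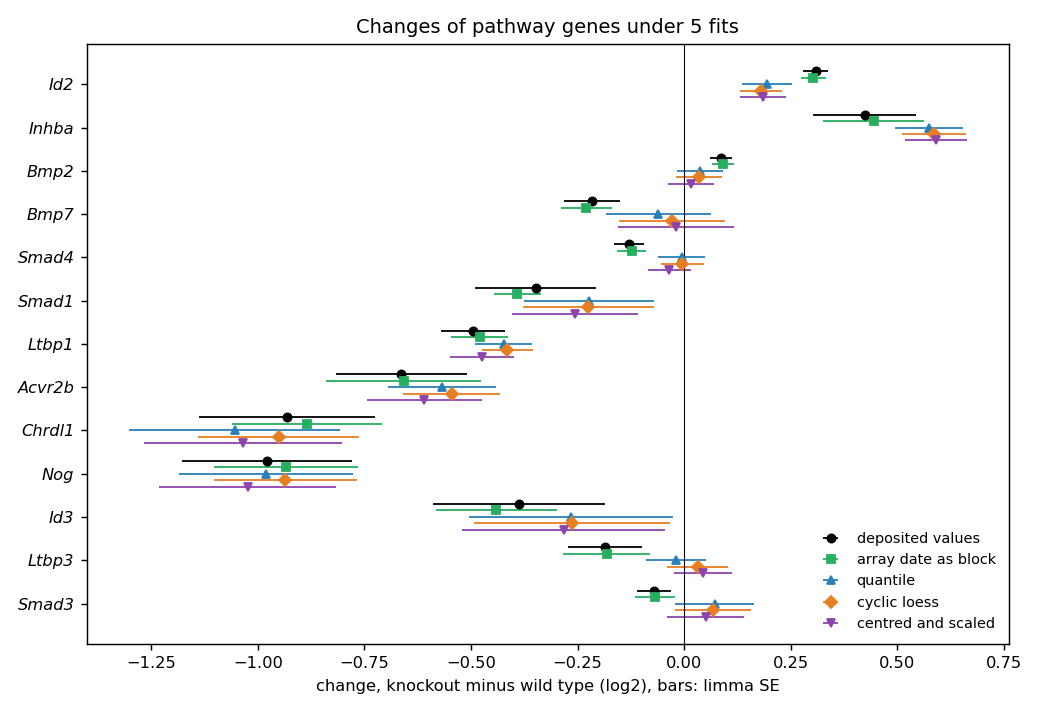
Change in knockout against wild type (x axis, log2, with bars for limma's SE) of 13 pathway genes in 5 fits, on the deposited values, with the array date as a block and after 3 scalings. Nog, Chrdl1, Acvr2b and Ltbp1 stay below 0 with similar sizes in all 5 fits, Id2 drops from 0.31 to between 0.18 and 0.19 after the quantile, cyclic loess and centring with scaling fits (median centring, not drawn, gave 0.38), and Ltbp3 and Smad3 cross 0 after some or all of the scalings drawn.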

How the data were processed

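The deposited log2 values were made by the authors with Affymetrix Expression Console and RMA, per the submitters' processing notes, from biotin-labelled total RNA on the mouse gene 1.0 ST array. The columns differ in their spread, with an SD over genes of 0.802 on knockout 2, 0.906 on knockout 5 and 0.991 to 1.02 on the wild-type arrays. Their medians were 5.05 and 5.14 in knockout and 5.16 to 5.17 in wild type. The part of these differences in the lower knockout values of bright genes was not tested. Versions and the build were not stated in the sources used here. Detection calls were not used, so levels are not compared between genes. Of 35556 rows, 21789 had 1 gene symbol in the platform annotation, 1621 several and 12146 none. The row of highest mean over the 5 arrays stood for each gene, which gave 19938 genes, 19856 matched by gene identifier to GRCm38.p6.

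The comparison of knockout with wild type used limma 3.58.1 under R 4.3.3 (lmFit, eBayes, two-sided) over all 5 arrays, with Benjamini-Hochberg adjustment over all genes and a threshold of 0.05. The fit was tested on simulated data without ties, with equal spread in both groups and with changes larger than those of the pathway genes. That test does not show how the fit behaves with the ties and unequal spreads of these arrays. The number of arrays limits the precision. The genes and lists were chosen with earlier results of these data known. Full values are given for genes past the threshold, for the 3 of lowest p in each class (2 in classes of up to 5), and for genes with knockout arrays at least 0.5 apart on opposite sides of wild type; among other pathway genes, for those past the threshold and the 5 of lowest p. Intervals are 95% intervals from limma's moderated fit. There were 18 alternatives, on the array date, filters, rows, variance model, array weights, scaling, threshold and left-out arrays.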

Additional observations from a re-analysis of the deposited data

How the results depend on the processing

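The count of 1 pathway gene past the threshold became 0 with the array date as a block, with array weights, with all rows of the table and under quantile normalisation, median centring, cyclic loess and centring with scaling. It was also 0 with dim genes left out and with only genes of non-identical wild-type values, because those filters drop Id2. It was 2 at a threshold of 0.1 and ranged from 0 to 21 when 1 array was left out, 0 without wild type 3, 4 or 6 and 21 without knockout 2 or without knockout 5, where the lone knockout array was taken to vary like wild type and 37.7% and 50.2% of all genes passed. For the other pathway genes the count of 2 became 0 with the block, array weights, quantile normalisation, cyclic loess and centring with scaling, 1 with all rows or median centring and 5 at 0.1, with 0 to 26 over the left-out arrays (17 without knockout 2, 26 without knockout 5, 0 without each wild-type array). Over all genes the count of 744 became 0 with the block, array weights, quantile normalisation and cyclic loess, where limma gave 3829, 1917, 3761 and 3919 genes at an unadjusted p under 0.05. It was 446 with dim genes left out, 150 with centring and scaling, 1630 at 0.1 and 0 to 9999 over the left-out arrays (7513 without knockout 2, 9999 without knockout 5). Median centring gave 343 rises and 292 falls in place of 309 and 435, moved the median of all genes to 0.064, and all rows gave 463 and 382. The array weights stopped before they converged.

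Of the 23 genes given with a test, 17 did not change sign in any alternative, though Acvr1 was at 0 without knockout 5. Signs turned for Bmp6 (0.034 with quantile, 0.063 with cyclic loess, 0.034 with centring and scaling, and -0.52 to 0.31 over the left-out arrays), Grem1 (-0.15 to 0.36 over the left-out arrays), Ltbp3 (0.032 with cyclic loess, 0.045 with centring and scaling), Smad3 (0.072 with quantile, 0.0019 with median centring, 0.068 with cyclic loess, 0.051 with centring and scaling), Tgfbr1 (0.012 with median centring) and Ddr1 (0.011 with quantile, 0.035 with cyclic loess, 0.039 with centring and scaling). Of the 29 cases in which a gene newly passed, 24 left out a knockout array. The cause of these shifts was not tested. No paired analysis was possible because the groups share no replicate number; the array date, which each group spans, was the block used. Signal over background was not measured here and limits what dim genes can show.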
